A study of Danio rerio with 6 samples.

Results

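The 10 zebrafish genes aldh1a2, cyp26a1, cyp26b1, crabp1a, crabp2a, crabp2b, rdh10a, dhrs3a, dhrs3b and stra6, whose proteins make, take up, bind and break down retinoic acid, were followed through single-cell RNA libraries of adult ventricles. They were chosen by symbol from the 27771 genes of the count matrices, and all 10 were found, each with 1 Ensembl identifier. The series compared clofv087b/+ fish (het), which carry 1 mutant copy of clo, with wild type fish (WT), each as sham, at 3 days post amputation (dpa) of the heart and at 7 dpa. Each of these 6 groups, het sham, WT sham, het 3 dpa, WT 3 dpa, het 7 dpa and WT 7 dpa, was 1 library made from 15 pooled ventricles, and the treatment label of both sham groups reads "untreated". Ages, sexes and the time between sham handling and collection were not given in the sources used here.

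Retinoic acid is a small signalling molecule made from vitamin A (retinol). Retinol enters cells with the help of the membrane receptor Stra6, is oxidised to retinal by Rdh10 enzymes and then irreversibly to retinoic acid by Aldh1a enzymes, while Dhrs3 enzymes reduce retinal back to retinol. In the cytosol, Crabp proteins bind retinoic acid, Cyp26 enzymes oxidise it to products bound for removal, and in the nucleus it acts through the retinoic acid receptors. In injured zebrafish hearts aldh1a2 is known from the epicardium, the outer cell layer, and from the endocardium, the inner one.

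The clo locus corresponds to npas4l, a transcription factor gene that starts the endothelial and blood lineages in the embryo. It had 20 unique molecular identifiers (UMIs, each standing for 1 captured transcript) in het sham cells against 45 in WT sham cells, 41 in het 3 dpa cells against 64 in WT 3 dpa cells, and 46 in het 7 dpa cells against 40 in WT 7 dpa cells. Scaled to the same total per library (CPM, the UMIs of a gene divided by all UMIs of the same cells and scaled to 1000000), these were 0.291 against 0.426, 0.697 against 0.696 and 0.445 against 0.376 CPM in het against WT cells. The nature of the fv087b lesion was not given in the sources used here, so these counts do not check the genotype labels.

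The libraries held 9445 to 14816 barcodes and 63752936 to 117947578 UMIs, and 8296 to 12448 cells per library were kept, with a median of 4351 to 7663 UMIs per cell. The WT sham and WT 3 dpa libraries were the deepest per cell, at 7434 and 7663 UMIs, against 4556 in the het sham and 4619 in the het 3 dpa library. The median share of mitochondrial UMIs was 8.77% in het 3 dpa and 8.06% in WT 3 dpa cells and between 3.42% and 4.87% in the other 4 libraries, and its part in the results at 3 dpa was not tested. Between 23 and 60 barcodes were shared by any pair of libraries, at most 0.476% of the barcodes of the smaller one. The 59147 kept cells formed 28 clusters, made without the 10 genes, and 19 of the clusters were named by marker genes into 9 classes, 10978 cells being cardiomyocyte-like. Names were rebuilt from the counts, and each ends in "-like". With 1 library per group there was no spread between replicates and no test of any difference. Levels are in CPM, ratios are log2 ratios of CPM with an exact 95% interval, and these intervals cover counting error only. A ratio was called when it reached 2-fold either way with an interval that excluded equality, for genes with at least 20 UMIs over both libraries. "Rose" and "fell" are used of called ratios.

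The 10 genes spanned a wide range of abundance, and most of them lay mainly in the same class of cells. Over all kept cells aldh1a2 (ENSDARG00000053493) had 37238 UMIs, cyp26b1 (ENSDARG00000077121) 14266, dhrs3b (ENSDARG00000044803) 8550, dhrs3a (ENSDARG00000044982) 4573, rdh10a (ENSDARG00000058730) 3949 and crabp2b (ENSDARG00000030449) 2325. The other 4 were sparse, with 608 UMIs for crabp2a (ENSDARG00000073978), 268 for crabp1a (ENSDARG00000045926), 153 for cyp26a1 (ENSDARG00000033999) and 59 for stra6 (ENSDARG00000051874). The 4 epicardium- or fibroblast-like clusters, 6102 cells in all, held 76.9% of the aldh1a2 UMIs, 90.8% of those of rdh10a, 94.6% of those of crabp2b and 97.4% of those of crabp1a. Most of the UMIs of dhrs3a, crabp2a and stra6 also lay in these 4 clusters. By contrast, 71.4% of the cyp26b1 UMIs lay in 1 unnamed cluster of 1420 cells led by rspo1 and angptl7, and 62.4% of those of dhrs3b lay in cardiomyocyte-like cells.

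**Figure D1:**
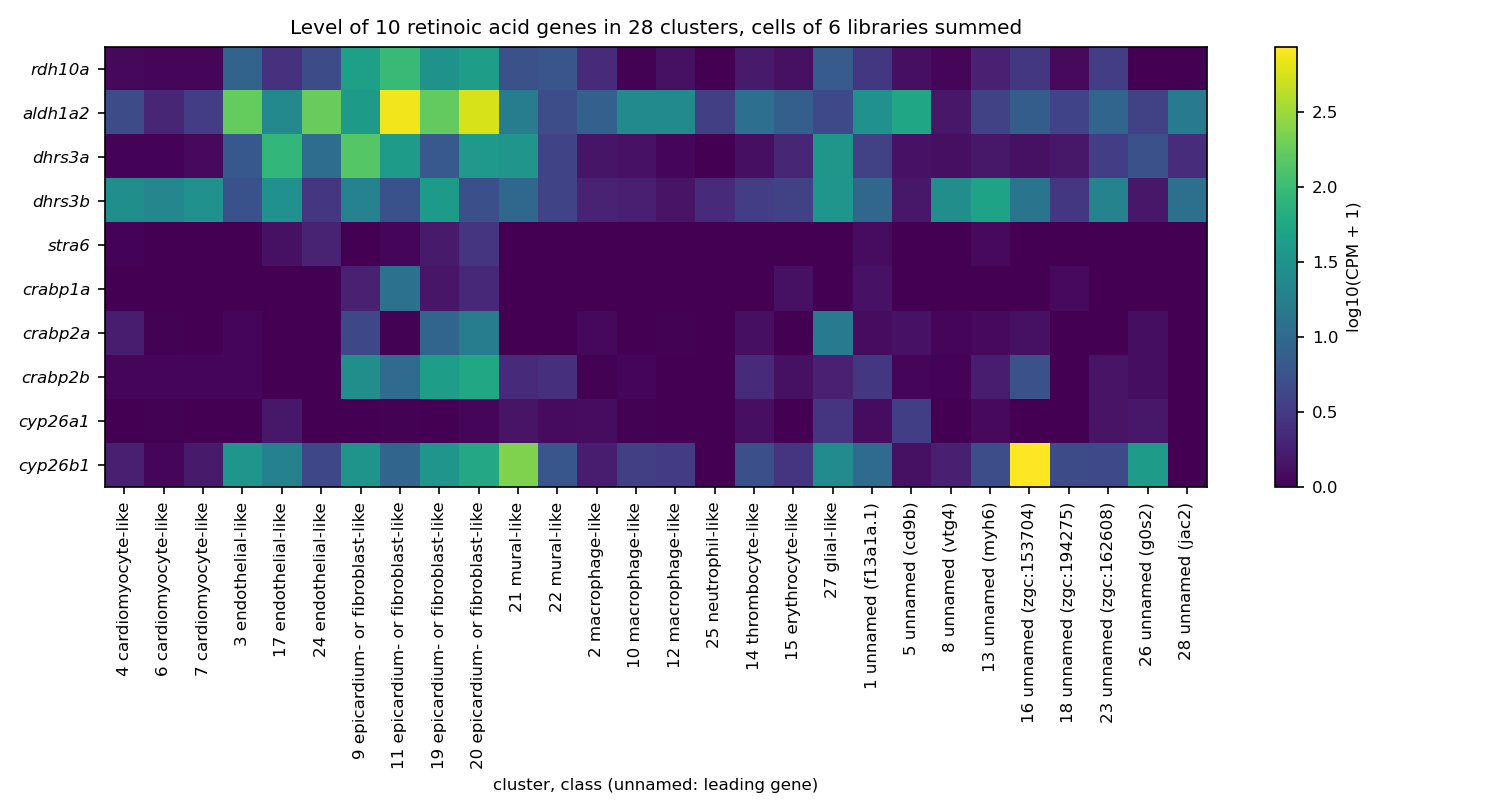
Heat map of the level of the 10 genes (rows, by role) in 28 clusters (columns, grouped by class, unnamed ones by their first leading gene), as log10(CPM + 1) of the cells of all 6 libraries summed. The brightest cells are cyp26b1 in cluster 16 at 863 CPM and aldh1a2 in clusters 11 and 20 at 749 and 570.4 CPM.

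Rdh10a, the retinol dehydrogenase, was highest in cluster 11, an epicardium- or fibroblast-like cluster led by s100a10a, ucmaa and jam2b. In cluster 11 its level was 82.7, 243 and 75.1 CPM at sham, 3 dpa and 7 dpa in het ventricles, and 116, 145 and 68.4 CPM in WT ventricles. The het 3 dpa library stood highest and the other 5 lay between 68.4 and 145 CPM. The ratio of 3 dpa over sham was 1.56 (1.26 to 1.86) in het ventricles, a rise, and 0.32 (0.03 to 0.62) in WT ventricles, with a median of 0.51 and 0.61 over all genes tested in the same cells, of which 37.2% and 38.8% were called. Cluster 9, led by fgl2b, dpt and mfap5, had 22.8, 62.4 and 35.8 CPM in het ventricles and 35.3, 70.6 and 49.7 CPM in WT ventricles at sham, 3 dpa and 7 dpa. There the 3 dpa libraries were the highest in both genotypes, with a ratio over sham of 1.45 (0.97 to 1.95) in het ventricles and 1.00 (0.55 to 1.46) in WT ventricles, and the het value was called. The share of all tested genes called in cluster 9 at 3 dpa over sham was 17.6% in het and 18.8% in WT ventricles.

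Aldh1a2, which makes retinoic acid from retinal, was the most abundant of the 10 genes. Cluster 11 held 37.4% of its UMIs, and cluster 20, led by col11a1a, adamtsl7 and col12a1b and made up of 743 cells from 3 dpa among 764, held 34.3%. In cluster 11 its level at sham, 3 dpa and 7 dpa was 693, 1510.0 and 597 CPM in het ventricles and 537, 1419 and 603 CPM in WT ventricles. Both 3 dpa libraries lay above all others. The 3 dpa over sham ratio was 1.12 (1.02 to 1.23) in het ventricles and 1.40 (1.28 to 1.53) in WT ventricles, and the median over all genes tested in cluster 11 was 0.51 and 0.61 in the same comparisons. At 7 dpa the ratio over sham was −0.21 (−0.31 to −0.12) in het ventricles and 0.17 (0.05 to 0.29) in WT ventricles, neither past 2-fold. Cluster 11 cells also changed in their other transcripts at 3 dpa, with col1a1a, a collagen gene, at 2609 CPM in het and 2527 CPM in WT ventricles, against 408 CPM in het sham and 302 CPM in WT sham ventricles. Per UMI of the 18 epicardial or fibroblast marker genes summed, aldh1a2 stood at 0.112, 0.0652 and 0.0455 UMIs in het ventricles and 0.105, 0.0616 and 0.0466 UMIs in WT ventricles at sham, 3 dpa and 7 dpa, so on that scale it was lower after injury in both genotypes.

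Most cluster 11 cells carried the gene. A UMI of aldh1a2 was found in 94.2%, 94.7% and 70.3% of these cells in het ventricles at sham, 3 dpa and 7 dpa, and in 89.6%, 94.5% and 73.1% in WT ventricles. Erythrocyte-like cells, which should lack the gene, carried a UMI in 0% to 1.69% of cells in the 5 libraries with 50 or more such cells, at a median depth of 620 to 2092 UMIs against 5286 UMIs in cluster 11. In cluster 20 the level was 558 CPM in het 3 dpa and 586 CPM in WT 3 dpa ventricles, in 305 of 343 and 344 of 400 cells. Cluster 20 cells were deep, with a median of 26541 UMIs.

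Aldh1a2 was low in cluster 9 of sham ventricles. It had 3.87, 77.1 and 25.2 CPM at sham, 3 dpa and 7 dpa in het ventricles, from 9, 147 and 97 UMIs, and 7.29, 141 and 17.1 CPM in WT ventricles, from 13, 239 and 46 UMIs. The sham libraries were the lowest in both genotypes and the 3 dpa libraries the highest. The rise at 3 dpa over sham was 4.32 (3.35 to 5.47) in het ventricles and 4.27 (3.47 to 5.20) in WT ventricles, and at 7 dpa 2.7 (1.72 to 3.87) in het and 1.23 (0.32 to 2.24) in WT ventricles. Only 38 of 390 het and 44 of 270 WT cells of cluster 9 carried a UMI at 3 dpa. At 7 dpa over sham 8.69% of all tested genes of cluster 9 were called in het and 12.3% in WT ventricles. Cluster 19, led by cilp2, postna and col8a1b and drawn almost wholly from 7 dpa, had 163 CPM in het 7 dpa and 153 CPM in WT 7 dpa ventricles. Cluster 19 also held the endothelial gene cdh5, at 345 CPM in het and 205 CPM in WT 7 dpa ventricles, against 1.86 to 8.70 CPM in cluster 11. The part of mixed cells in its values was not tested.

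**Figure D2:**
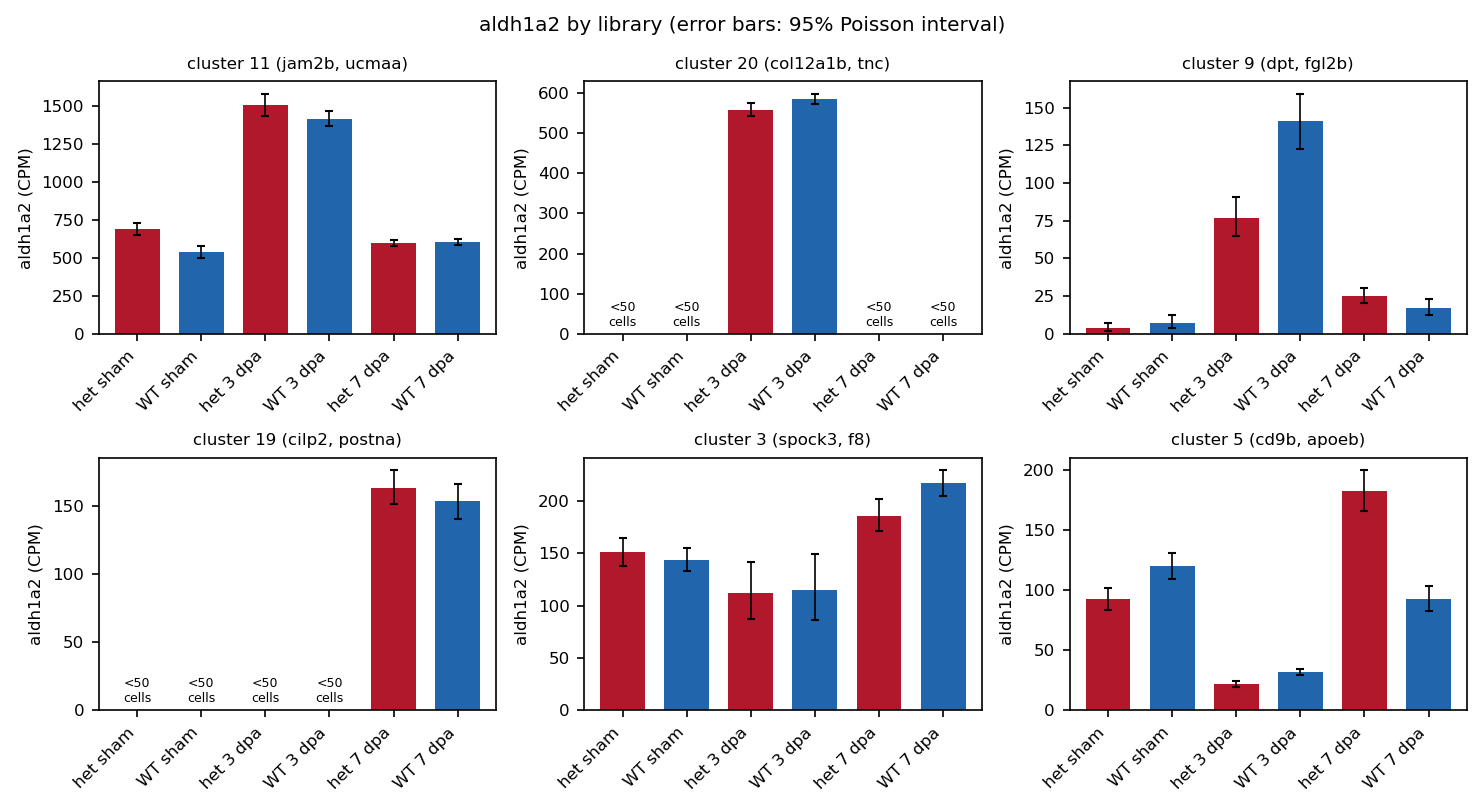
Bars give the level of aldh1a2 in CPM in 6 clusters (panels) for each library, het in red and WT in blue, with 95% Poisson intervals; clusters with under 50 cells in a library are marked. In clusters 11 and 9 both 3 dpa libraries are the highest (1510.0 and 1419 CPM, 77.1 and 141 CPM), whereas in cluster 5 they are the lowest (21.8 and 31.5 CPM).

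Endothelial-like cells carried aldh1a2 in particular clusters. Cluster 3, led by spock3, f8 and aqp8a.1, had 151, 112 and 186 CPM at sham, 3 dpa and 7 dpa in het ventricles and 144, 115 and 217 CPM in WT ventricles. The 3 dpa libraries were the lowest and the 7 dpa libraries the highest in both genotypes, and no difference in cluster 3 reached 2-fold. A UMI was present in 32.2%, 18% and 35.5% of these cells in het ventricles and in 33.0%, 17% and 43.7% in WT ventricles, in the same order. Cluster 3 had at most 3.01 CPM of tcf21 and at most 4.01 CPM of tbx18, both epicardial transcription factor genes, against at least 103 CPM of tcf21 and at least 105 CPM of tbx18 in cluster 11. Other markers of the list were present in cluster 3, with 455 to 851 CPM of podxl and 146 to 236 CPM of col1a2 over the 6 libraries. Col1a1a was at 77.0 to 153 CPM and dcn at 37.5 to 109.6 CPM there. Aldh1a2 stood at 0.0841 to 0.128 UMIs per UMI of the 18 markers, podxl among them, against 0.0455 to 0.112 in cluster 11. The part of these transcripts in the level of cluster 3 was not tested. In cluster 24, led by zgc:195001, edn2 and rspo2 and expressing vwf, aldh1a2 stood at 100.1 CPM in het sham against 260.4 CPM in WT sham ventricles, a ratio of −1.38 (−1.84 to −0.93) from 68 and 106 UMIs, in a comparison that called 13.5% of all tested genes. Of the 106 WT sham UMIs 33 came from 1 of 68 cells, and of the 68 het sham UMIs 10 came from 1 of 104 cells. At 7 dpa cluster 24 had 156 CPM in het against 221 CPM in WT ventricles.

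Cluster 17, led by plvapa and plvapb, genes of fenestrated vessel endothelium, had little aldh1a2 except at 3 dpa. It had 0, 104 and 1.58 CPM at sham, 3 dpa and 7 dpa in het ventricles and 9.36, 113 and 16.8 CPM in WT ventricles. The het 3 dpa level came from 48 UMIs in 5 of 90 cells, 22 of them in 1 cell, and the WT 3 dpa level from 56 UMIs in 13 of 103 cells. Against the level that 3 UMIs would give in het sham cells, 1.96 CPM, the het 3 dpa level was 53.1-fold higher. The exact interval of the log2 ratio over het sham started at 5.38, and in WT ventricles the rise was 3.59 (2.46 to 4.97). Of all genes tested in cluster 17 at 3 dpa over sham, 24.9% were called in het and 26.0% in WT ventricles. In the same cells fn1b, a fibronectin gene among the fibroblast markers, stood at 633 CPM in het 3 dpa and 414 CPM in WT 3 dpa, against 64.7 CPM in het sham and 29.4 CPM in WT sham cells, while tcf21 was at most 2.17 CPM in any library. The summed level of the 18 epicardial or fibroblast markers in cluster 17 was 1264, 2253 and 1706 CPM in het ventricles and 1331, 1592 and 1560.1 CPM in WT ventricles at sham, 3 dpa and 7 dpa. Most of each sum was podxl, at 1125, 1419.8 and 1324 CPM in het and 1266, 908 and 1296 CPM in WT ventricles. The part of these transcripts in the aldh1a2 level was not tested.

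Cluster 5, an unnamed cluster led by cd9b, gda and apoeb with macrophage genes among its markers, carried aldh1a2 as well. Of its 4173 cells 3284 came from 3 dpa. They were not counted in the macrophage-like class, which had 378 het and 403 WT cells at 3 dpa. The level at sham, 3 dpa and 7 dpa was 92.2, 21.8 and 182 CPM in het ventricles and 119.9, 31.5 and 92.3 CPM in WT ventricles. The 3 dpa libraries were far below the others, with a fall against sham of −2.08 (−2.31 to −1.86) in het and −1.93 (−2.10 to −1.75) in WT ventricles, where 14% of all tested genes of these cells were called in het and 18.7% in WT. Cluster 5 had at most 1.98 CPM of tcf21 and at most 11.8 CPM of col1a1a, and 0.254 to 5.59 aldh1a2 UMIs per UMI of the 18 markers, against 0.0455 to 0.112 in cluster 11. Its macrophage gene mpeg1.1 ranged from 278 to 708 CPM. The named macrophage-like clusters stood at 16 CPM over all libraries, against 53.7 CPM in cluster 5. In cluster 10, one of these, aldh1a2 rose at 7 dpa to 33.8 CPM in het and 60.1 CPM in WT ventricles, against 12.8 CPM in het sham and 11.7 CPM in WT sham ventricles. The ratios were 1.40 (0.85 to 1.99) in het and 2.37 (2.05 to 2.69) in WT ventricles, with 13.3% and 8.90% of all tested genes called.

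Cardiomyocyte-like cells had little aldh1a2, at 2.54 CPM over all libraries, below the 6.66 CPM of erythrocyte-like cells. Their het sham level of 2.58 CPM against 0.664 CPM in WT sham cells rested on 1 cell with 43 of the 54 UMIs, and without the top cell of each library the ratio was −0.20, against 1.96 with it. In WT ventricles the level was called higher after injury, at 2.22 CPM in WT 3 dpa and 5.11 CPM in WT 7 dpa, against 0.664 CPM in WT sham cells, ratios of 1.74 (1.07 to 2.48) and 2.94 (2.31 to 3.65), though without doublet removal the 3 dpa ratio was 0.66. Het 3 dpa and het 7 dpa cells had 1.33 and 2.71 CPM. In cluster 4, which did not hold the cell with 43 UMIs, het ventricles had 0.440, 3.01 and 3.71 CPM at sham, 3 dpa and 7 dpa. The ratios over sham were 2.77 (1.39 to 4.31) and 3.08 (1.95 to 4.45), both called. In WT ventricles they were 2.81 (1.87 to 3.87) and 3.73 (2.89 to 4.72), also called. In cluster 6 the het 3 dpa ratio was −0.06, not called. The het over WT ratio of cluster 4 at 7 dpa was −1.40 (−1.85 to −0.97), called. Of all genes tested in the class, 20.4% were called in WT 3 dpa and 12.8% in WT 7 dpa over sham. Mural-like cells stood at 7.95 CPM.

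Over the whole epicardium- or fibroblast-like class, aldh1a2 had 291 CPM in het sham against 220.2 CPM in WT sham ventricles, 572 CPM in het 3 dpa against 640.4 CPM in WT 3 dpa ventricles, and 320.1 CPM in het 7 dpa against 343 CPM in WT 7 dpa ventricles. The het over WT ratio was 0.40 (0.27 to 0.54), −0.16 (−0.21 to −0.12) and −0.10 (−0.16 to −0.04) at the 3 stages, so the genotypes lay within 2-fold throughout. The 3 dpa over sham ratio of the class was 0.97 (0.88 to 1.06) in het and 1.54 (1.43 to 1.65) in WT ventricles, and the WT value was called. With scale factors from trimmed means it was 0.60 in het and 1.05 in WT ventricles, and with cluster 20 left out it was 1.05 in het and 1.91 in WT ventricles. With cells named one by one, which kept 213 het sham and 96 WT sham cells, it was 3.1 in het and 4.20 in WT ventricles, both past 2-fold. Different clusters made up the class at each stage. Cluster 20 held 72.4% of the class UMIs in het 3 dpa and 77.9% in WT 3 dpa, against 1.02% in het sham and 0.845% in WT sham ventricles, and cluster 9 held 55.0% in het sham and 57.9% in WT sham ventricles.

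The share of epicardium- or fibroblast-like cells with a UMI of aldh1a2, after each cell was thinned to 1000 UMIs, was 16.4%, 25.8% and 19.5% in het ventricles at sham, 3 dpa and 7 dpa and 12.3%, 31.9% and 18.6% in WT ventricles. Without thinning the shares were 32.3%, 52.4% and 40.5% in het and 29.7%, 64.6% and 43.8% in WT ventricles. In the endothelial-like class the thinned share was 8.39%, 7.81% and 11.4% in het and 12.2%, 9.85% and 14.8% in WT ventricles. The thinned share in erythrocyte-like cells was 0% to 2.56% in the 5 libraries with enough cells. Thinning left out 6 to 77 cells per library in the epicardium- or fibroblast-like class, 25 to 65 in the endothelial-like class and 76 to 572 in the erythrocyte-like class.

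The enzymes that reduce retinal back to retinol divided between cell types. Dhrs3a was highest in cluster 9, which held 45.2% of its UMIs, with 154, 87.6 and 179 CPM at sham, 3 dpa and 7 dpa in het ventricles and 154, 81.1 and 163 CPM in WT ventricles. The sham levels of the genotypes were equal, and both 3 dpa libraries lay below all others, with ratios over sham of −0.81 (−1.09 to −0.55) in het and −0.92 (−1.23 to −0.62) in WT ventricles, short of 2-fold. In cluster 9 dhrs3a was thus lowest and aldh1a2 highest at 3 dpa. In cluster 11 dhrs3a had 17.2, 51.0 and 37.6 CPM in het ventricles and 80.6, 56.6 and 31.4 CPM in WT ventricles. The sham libraries were the lowest of the het and the highest of the WT ones. The het over WT ratio at sham was −2.23 (−2.87 to −1.63), from 30 UMIs in 25 of 173 het cells and 100 UMIs in 43 of 134 WT cells, and 7.91% of all tested genes were called in that comparison. At 3 dpa and 7 dpa the genotypes lay within 2-fold of each other, at 51.0 CPM in het against 56.6 CPM in WT and 37.6 CPM in het against 31.4 CPM in WT ventricles.

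Cluster 20 had 28.7 CPM of dhrs3a in het 3 dpa and 43.2 CPM in WT 3 dpa ventricles, in 30.0% and 39.5% of cells. The endothelial-like cluster 17 held fewer of the dhrs3a UMIs than clusters 20 and 11, but its level over all libraries was higher. The level of dhrs3a in cluster 17 was 144, 23.9 and 94.8 CPM at sham, 3 dpa and 7 dpa in het ventricles and 84.2, 50.4 and 49.6 CPM in WT ventricles. The het libraries were the higher ones at sham and 7 dpa and the lower one at 3 dpa. The het over WT ratios were 0.78 (0.37 to 1.21), −1.08 (−2.25 to 0.00) and 0.94 (0.47 to 1.42), and the 3 dpa one, from 11 and 25 UMIs, was called with an interval that barely excluded equality, where 12.8% of all tested genes were called. The fall at 3 dpa over sham was −2.59 (−3.62 to −1.73) in het ventricles, and the WT ratio of −0.74 was not called. Over the endothelial-like class, dhrs3a stood at 48.9 CPM in het sham against 17.1 CPM in WT sham ventricles and at 31.2 CPM in het 7 dpa against 9.62 CPM in WT 7 dpa ventricles. These class ratios, 1.52 (1.17 to 1.87) and 1.70 (1.28 to 2.13), were called where 8.59% and 7.01% of all tested genes of the class were. The makeup of the class differed as well. Cluster 17 held 28.6% of its UMIs in het sham against 13.6% in WT sham, and 27.1% in het 7 dpa against 15.5% in WT 7 dpa ventricles. Within cluster 3, the largest of the class, dhrs3a was 7.94 CPM in het sham against 6.89 CPM in WT sham and 7.35 CPM in het 7 dpa against 2.43 CPM in WT 7 dpa ventricles, ratios of 0.20 (−0.62 to 1.02) and 1.60 (0.57 to 2.68). The second was called, from 22 and 14 UMIs, where 6.20% of all tested genes were called.

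Dhrs3b, the paralogue, had most of its UMIs in heart muscle cells. Its level in the cardiomyocyte-like class was 36.3, 23.4 and 34.6 CPM at sham, 3 dpa and 7 dpa in het ventricles and 18.8, 23.3 and 26.5 CPM in WT ventricles. Het sham stood highest and WT sham lowest, and the genotypes were level at 3 dpa. Within cluster 4, the largest cardiomyocyte-like cluster, the sham levels were 38.4 CPM in het against 17.1 CPM in WT ventricles. The ratio was 1.17 (0.96 to 1.38), from 611 and 278 UMIs, called where 7.88% of all tested genes were. In the other cardiomyocyte-like clusters, 6 and 7, it was 0.24 (−0.47 to 1.00) and 0.52 (0.16 to 0.87), neither called. In the unnamed cluster 8, nearest to the cardiomyocyte-like class, it was 0.17 (−0.11 to 0.44), not called. The 3 dpa levels of cluster 4 were 31.3 CPM in both genotypes. Cluster 13, an unnamed cluster led by myh6, the atrial myosin heavy chain, had the highest pooled level, 49.3 CPM, with 31.8 to 69.7 CPM in the 6 libraries. The epicardium- or fibroblast-like class had 17.8 CPM in het sham against 6.49 CPM in WT sham cells, a ratio of 1.45 (0.73 to 2.24). Of its 75 het sham UMIs 17 came from 1 cell, of cluster 20. Within cluster 9 the ratio was 1.06 (0.26 to 1.93), called where 9.27% of all tested genes were. In cluster 17 dhrs3b was 22.2, 13 and 49.8 CPM in het ventricles and 33.4, 12.1 and 28.3 CPM in WT ventricles at sham, 3 dpa and 7 dpa, so the lowest level of both genotypes was at 3 dpa. Those 3 dpa levels rested on 6 UMIs in each genotype. Over sham the ratio was −0.77 (−2.31 to 0.50) in het ventricles, not called. In WT ventricles it was −1.46 (−3.04 to −0.14), called where 26.0% of all tested genes were.

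**Figure D3:**
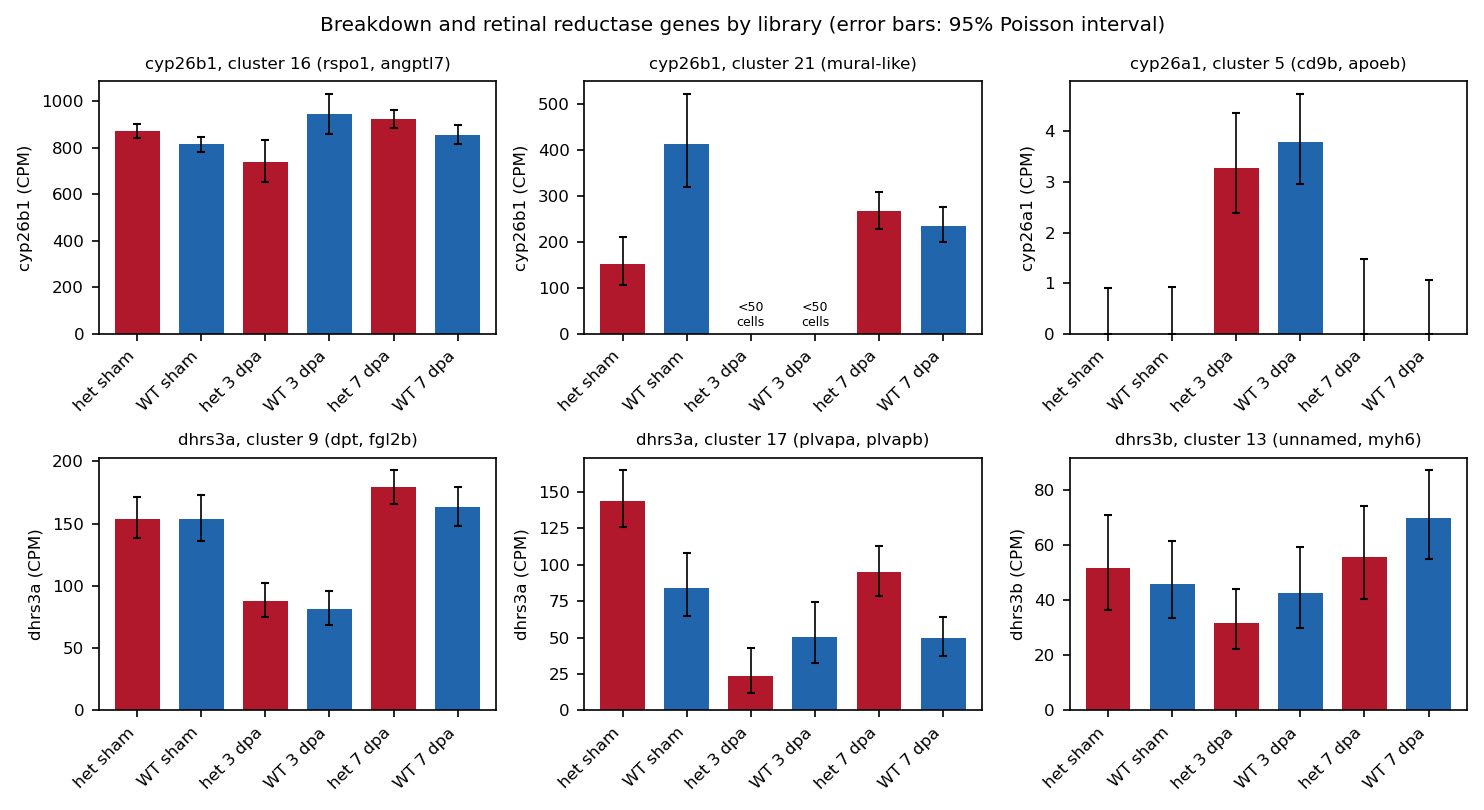
Bars give levels in CPM for each library, het in red and WT in blue, with 95% Poisson intervals, of cyp26b1 in clusters 16 and 21, cyp26a1 in cluster 5, dhrs3a in clusters 9 and 17 and dhrs3b in cluster 13. The cyp26b1 bars of cluster 16 lie between 739 and 944 CPM, and the cyp26a1 bars are above 0 at 3 dpa only, at 3.27 CPM in het and 3.79 CPM in WT.

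Stra6, the retinol receptor, was rare, with 59 UMIs in 45 cells, and 40 of these UMIs lay in cluster 20. At 3 dpa cluster 20 had 13 UMIs in 7 of 343 het cells and 26 UMIs in 21 of 400 WT cells, or 1.58 CPM in het against 1.90 CPM in WT ventricles. In the epicardium- or fibroblast-like class the WT 3 dpa level was 1.48 CPM, and no UMI was found in WT sham ventricles. Against the 0.973 CPM that 3 UMIs would give at WT sham, the WT 3 dpa level was 1.52-fold higher. The exact interval of the log2 ratio over WT sham started at 0.20.

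Of the 3 binding protein genes, crabp1a was highest at sham, and crabp2a and crabp2b shared the clusters of injured ventricles. Crabp1a was highest in cluster 11 cells of sham ventricles, and cluster 11 held 81.7% of its UMIs. Its level was 38.5, 23.2 and 2.17 CPM at sham, 3 dpa and 7 dpa in het ventricles, from 67, 25 and 14 UMIs, and 44.3, 14.4 and 4.68 CPM in WT ventricles, from 55, 30 and 28 UMIs. Both genotypes had the same order, sham highest and 7 dpa lowest. At 7 dpa over sham crabp1a fell by 4.15 on the log2 scale in het (−5.09 to −3.30) and by 3.24 in WT ventricles (−3.95 to −2.56). At 3 dpa the ratio was −0.73 (−1.45 to −0.05) in het, not called, and −1.62 (−2.32 to −0.96) in WT ventricles, a fall. The share of all tested genes called in cluster 11 was 18.1% in het and 23.5% in WT ventricles at 7 dpa over sham.

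Crabp2b was higher in injured ventricles in clusters 9 and 11. In cluster 9 it had 14.6, 53.5 and 24.4 CPM at sham, 3 dpa and 7 dpa in het ventricles and 6.73, 38.2 and 29.7 CPM in WT ventricles. The sham libraries were the lowest in both genotypes. It rose at 3 dpa over sham by 1.87 (1.30 to 2.48) in het and 2.51 (1.61 to 3.53) in WT ventricles. At 7 dpa the ratio over sham was 0.74 (0.16 to 1.35) in het, not called, and 2.14 (1.26 to 3.15) in WT ventricles. The clusters that appeared after injury carried similar levels, with 56.2 CPM in het 3 dpa and 58.0 CPM in WT 3 dpa ventricles in cluster 20, and 46.6 CPM in het 7 dpa and 42.3 CPM in WT 7 dpa ventricles in cluster 19. In cluster 11, where crabp1a fell, crabp2b had no UMI in either sham library and 15.8 and 10.6 CPM at 3 dpa and 7 dpa in het, and 10.1 and 12 CPM in WT ventricles. Against 3 UMIs in the sham library the level was 6.16-fold higher in het 7 dpa, 4.17-fold higher in WT 3 dpa and 4.96-fold higher in WT 7 dpa ventricles. The exact intervals of the log2 ratio over sham started at 2.28, 1.63 and 1.98. The het 3 dpa level rested on 17 UMIs, too few for a call. In the unnamed cluster 16, by contrast, crabp2b fell at 7 dpa over sham in het ventricles. The ratio was −2.48 (−4.84 to −0.78), from 3 and 28 UMIs, and WT ventricles had too few UMIs there for a call.

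Crabp2a lay mainly in the 2 clusters of injured ventricles, with 72.4% of its 608 UMIs in clusters 19 and 20. Its level in cluster 20 was 16.6 CPM in both het 3 dpa and WT 3 dpa ventricles, in 55 of 343 and 81 of 400 cells. In cluster 19 the level was 11.9 CPM in het 7 dpa against 3.55 CPM in WT 7 dpa ventricles, a ratio of 1.75 (0.85 to 2.76) where 5.27% of all tested genes were called, but 23 of the 49 het UMIs came from 1 cell. Cluster 11 had 1 UMI in all 6 libraries together. The 3 dpa over sham ratio in the epicardium- or fibroblast-like class, 2.55 (1.58 to 3.70) in het and 2.76 (1.61 to 4.22) in WT ventricles, rested on cluster 20. That cluster held 136 of the 141 het 3 dpa UMIs and 227 of the 231 WT 3 dpa UMIs of the class. At sham the class had 9 UMIs in het and 6 in WT ventricles. Without cluster 20 the ratios were −0.43 in het and −0.93 in WT ventricles, each from fewer than 20 UMIs, too few for a call.

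**Figure D4:**
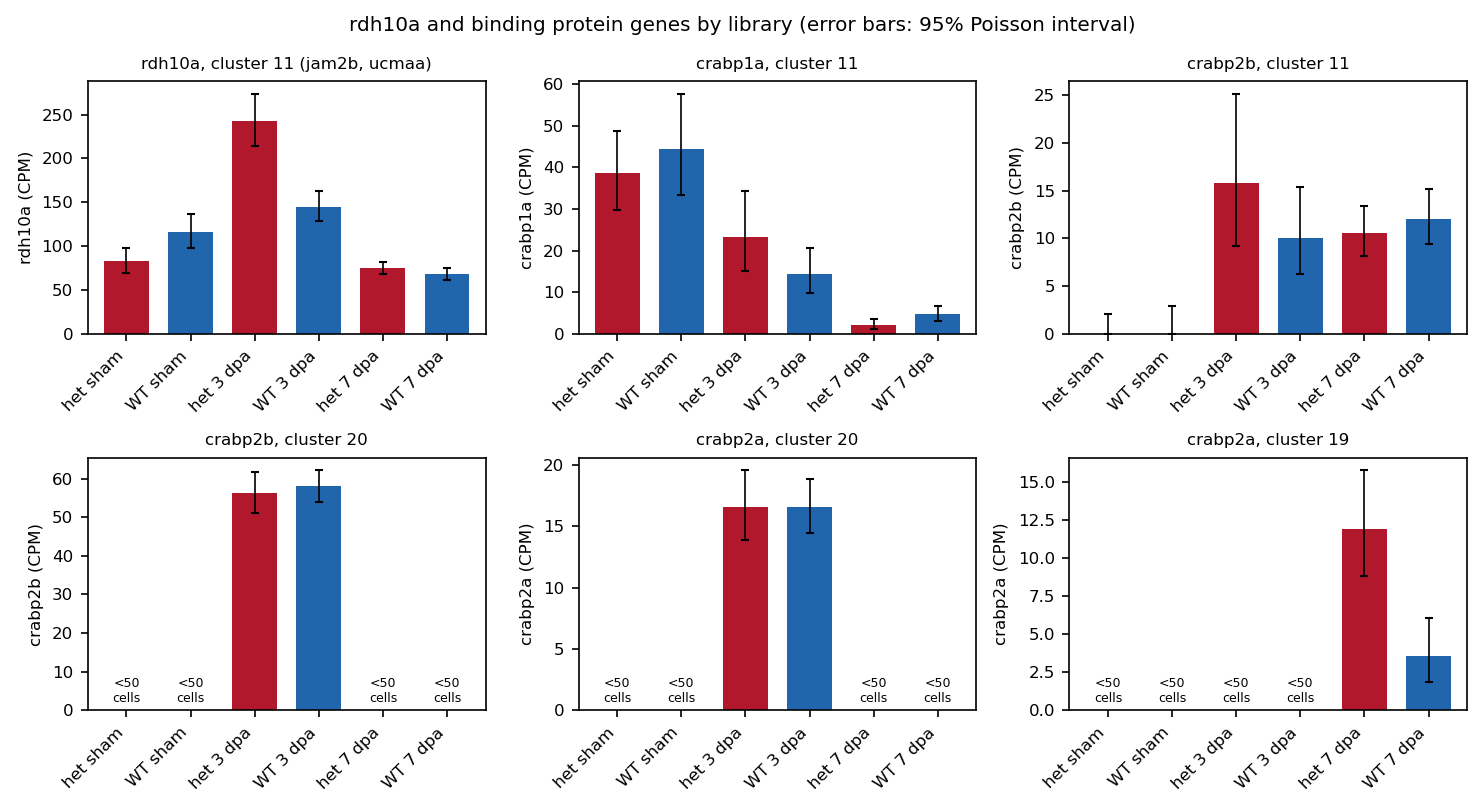
Bars give levels in CPM for each library, het in red and WT in blue, with 95% Poisson intervals, of rdh10a, crabp1a and crabp2b in cluster 11, crabp2b and crabp2a in cluster 20 and crabp2a in cluster 19; clusters with under 50 cells in a library are marked. In cluster 11 crabp1a is highest at sham (38.5 and 44.3 CPM) and crabp2b is at 0 at sham and between 10.1 and 15.8 CPM after injury.

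The breakdown enzyme genes each had most of their UMIs in 1 cluster. Cyp26b1 marked cluster 16, the unnamed cluster led by zgc:153704, rspo1 and angptl7, which passed the naming rule for no cell type. Its level there was 870.3, 739 and 922 CPM at sham, 3 dpa and 7 dpa in het ventricles and 815, 944 and 855 CPM in WT ventricles. No stage or genotype stood apart, and none of the 7 ratios reached 2-fold. A UMI was found in 83.2%, 64.3% and 82.3% of these cells in het ventricles and in 87.4%, 87.9% and 79.3% in WT ventricles, against 0.295% of erythrocyte-like cells over all libraries, with median depths of 7776 and 767 UMIs. Aldh1a2 was 2.96 to 8.49 CPM in cluster 16, around the 6.66 CPM of erythrocyte-like cells, and in cluster 11, where aldh1a2 peaked, cyp26b1 was 8.02 CPM over all libraries. Cluster 16 cells numbered 387, 70 and 345 in het and 301, 66 and 251 in WT ventricles at sham, 3 dpa and 7 dpa.

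The second site of cyp26b1 was the mural-like cluster 21, led by atp1a1b, cxcl12b and rgs4. It had 152 CPM in het sham against 412 CPM in WT sham ventricles and 266 CPM in het 7 dpa against 235 CPM in WT 7 dpa ventricles. The WT sham level rested on 68 UMIs in 15 of 68 cells, 31 of them in 1 cell, and the het sham level on 36 UMIs in 15 of 103 cells. The other mural-like cluster, 22, had 5.18 CPM over all libraries. The mural-like class as a whole had 153 CPM in het 7 dpa ventricles, against 20.3 CPM at het sham, and 175 CPM in WT 7 dpa against 55.7 CPM in WT sham ventricles, both called, as were 21.1% of all tested genes of the class in het and 25.8% in WT. Cluster 21 held 57.1% of the class UMIs in het 7 dpa and 74.0% in WT 7 dpa, against 8.71% in het sham and 13.3% in WT sham ventricles, and within cluster 21 the 7 dpa over sham ratio was 0.80 in het and −0.81 in WT ventricles.

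Lower levels of cyp26b1 were found in fibroblast-like and endothelial-like clusters. Cluster 20 had 59.8 CPM in het 3 dpa and 58.2 CPM in WT 3 dpa ventricles, beside its 558 and 586 CPM of aldh1a2. Cluster 9 had 47.3, 19.9 and 40.7 CPM at sham, 3 dpa and 7 dpa in het ventricles and 17.4, 14.1 and 34.5 CPM in WT ventricles. The 3 dpa libraries were the lowest of each genotype there. The het over WT ratio at sham was 1.45 (0.86 to 2.07), from 110 and 31 UMIs, beside 9.27% of all tested genes called. Cluster 3 had 51.8, 41.8 and 27.7 CPM in het and 35.6, 43.7 and 24.8 CPM in WT ventricles, with the 7 dpa libraries the lowest of both.

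Cyp26a1 was rare and mostly found in cluster 5 at 3 dpa, the stage at which aldh1a2 was lowest there. Of its 153 UMIs 119 lay there, 45 in 20 of 1578 het cells and 74 in 22 of 1706 WT cells, or 3.27 CPM in het against 3.79 CPM in WT ventricles. In cluster 5 no UMI was found at sham or 7 dpa, among 206 and 196 het cells and 229 and 258 WT cells, which allows shares of up to 1.46% and 1.53% of het cells and 1.31% and 1.16% of WT cells. The shares at 3 dpa, 1.27% in het and 1.29% in WT ventricles, lay at or near these limits, and erythrocyte-like cells had 0 of 1697. Against 3 UMIs at sham the 3 dpa level was 4.40-fold higher in het and 5.01-fold higher in WT ventricles. The exact intervals of the log2 ratio over sham started at 1.78 and 1.99. In WT ventricles 22 of the 74 UMIs came from 1 cell, and over all libraries 10 cells held 51.6% of the UMIs.

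Between het and WT ventricles, called values of the 10 genes were found at sham and 7 dpa. Over the classes with at least 100 cells in both libraries, 22 gene-by-class values could be tested at sham and 9 were called, 6 higher and 3 lower in het, where 10.1% of all gene-by-class values were called. At 3 dpa 0 of 15 were called, against 7.18% of all values, and at 7 dpa 3 of 25, 1 higher and 2 lower in het, against 6.22%. These counts depended on the settings, with 5 called at sham and 5 at 7 dpa without doublet removal, and 3 called at sham at a fold of 3. The 3 at 7 dpa were dhrs3a in endothelial-like cells, crabp1a in the epicardium- or fibroblast-like class at 1.04 CPM in het against 2.52 CPM in WT (1 of 8 tested, beside 5.10% of all genes), and cyp26b1 in macrophage-like cells at 0.425 CPM in het against 4.63 CPM in WT, beside 6.08%. Of the 92 WT UMIs of cyp26b1 there, 51 came from 1 cell of cluster 10 and 31 from 1 cell of cluster 12. In the epicardium- or fibroblast-like class 0 of 9 were called at 3 dpa, beside 5.94% of all genes. Whether the share at sham differed from those after injury was not tested. Of the 9 at sham, 3 came from macrophage-like cells with few UMIs or differing cluster makeup, and aldh1a2 in cardiomyocyte-like cells, where 9.94% of all genes were called, rested on 1 cell. Outside the epicardium- or fibroblast-like class the others were cyp26b1 in mural-like cells, where 13.7% of all genes were called, and dhrs3a and rdh10a in endothelial-like cells, rdh10a at 2.99 CPM in het against 6.90 CPM in WT. Within cluster 3 the rdh10a ratio was −0.58 (−1.54 to 0.33), from 16 and 33 UMIs, and was not called. Cluster 3 held 58.8% of the endothelial-like UMIs in het sham against 79.0% in WT sham ventricles. The macrophage-like values, where 12.6% of all genes were called, were aldh1a2 at 7.24 CPM in het against 15.7 CPM in WT, cyp26b1 from 30 het and 15 WT UMIs, and rdh10a from 23 het and 14 WT UMIs. In the epicardium- or fibroblast-like class cyp26b1 was 32.2 CPM in het sham against 13.3 CPM in WT sham cells, a ratio of 1.28 (0.76 to 1.82), and dhrs3b was the other of the 2 called among 7 tested, beside 7.59% of all genes. The median of the 7 genes was 0.40 against 0.06 over all genes. The higher cyp26b1 of het sham was not particular to this class. In the unnamed cluster 1, with a median of 705 UMIs per cell, cyp26b1 had 29.8 CPM in het sham against 14.4 CPM in WT sham cells. That ratio, 1.05 (0.13 to 2.00), was called. In cluster 16 the ratio was 0.10 (0.02 to 0.17), and in cluster 21 it was −1.43 (−2.06 to −0.83), called lower.

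**Figure D5:**
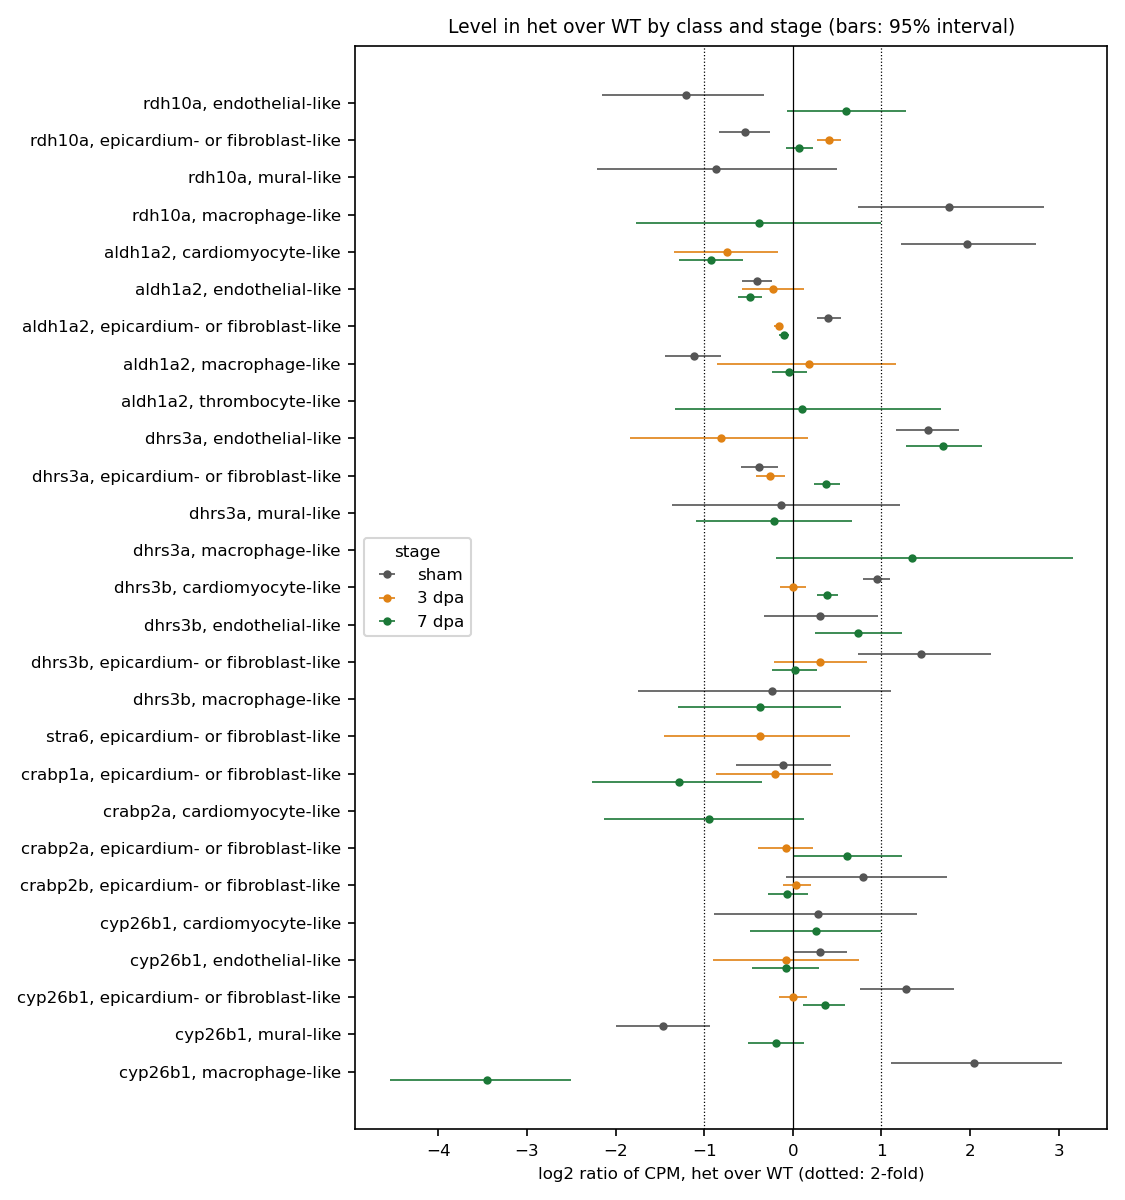
Points give the log2 ratio of CPM in het over WT ventricles for each gene and class (rows) at sham, 3 dpa and 7 dpa (colours), with exact 95% intervals; dotted lines mark 2-fold. Most points lie within 2-fold, and dhrs3a in endothelial-like cells lies to the right at sham and 7 dpa (1.52 and 1.70).

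After injury, binding protein genes and dhrs3a were called in the same direction in both genotypes at 3 dpa in the epicardium- or fibroblast-like class. Crabp2a and crabp2b were higher and crabp1a and dhrs3a lower, but different clusters made up the class at sham and at 3 dpa. Without cluster 20 crabp2a had too few UMIs for a call in both genotypes. Crabp1a in cluster 11 stood at −0.73 in het, not called, and at −1.62 in WT ventricles. Dhrs3a in cluster 9 stood at −0.81 in het and −0.92 in WT ventricles, neither called. Within cluster 11 dhrs3a was higher in het 3 dpa than in het sham cells. Crabp2b rose within cluster 9 in both genotypes. Over all classes, 6 of 19 gene-by-class values were called in het 3 dpa over het sham ventricles, 2 higher and 4 lower, with 25.7% of all values called, and at 7 dpa 10 of 23, 7 higher and 3 lower, with 12.5%. In WT ventricles 9 of 18 were called at 3 dpa over sham, 6 higher and 3 lower, with 26.2% of all values called, and at 7 dpa 10 of 23, 8 higher and 2 lower, with 14.9%. Within the epicardium- or fibroblast-like class, 5 of 8 genes were called at 3 dpa in het and 7 of 9 in WT ventricles, beside 46.5% and 47.1% of all genes, and at 7 dpa 3 of 8 in het and 4 of 8 in WT ventricles, beside 16.6% and 24.3%. The median ratio of the genes there was 0.59 in het and 1.54 in WT ventricles, at 3 dpa, against 0.56 and 0.75 over all genes. The het and WT comparisons used different libraries, and the 2 comparisons within a genotype shared its sham library.

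Other genes of the pathway were read from a list of 62 genes, 58 of them present and 30 with at least 500 UMIs over all kept cells. In the epicardium- or fibroblast-like class at 3 dpa over sham, 3 of 27 rose and 11 fell in het ventricles, and 5 of 29 rose and 10 fell in WT ventricles, beside the 46.5% and 47.1% of all genes called. The median ratio of the list was −0.45 in het and −0.09 in WT ventricles, against 0.56 and 0.75 over all genes. Rdh10b, a second retinol dehydrogenase gene, rose to 145 CPM in het 3 dpa ventricles, against 32.0 CPM at het sham, a ratio of 2.18 (1.93 to 2.45), and to 175 CPM in WT 3 dpa against 34.7 CPM in WT sham ventricles, a ratio of 2.34 (2.06 to 2.63). It remained higher at 7 dpa, at 95.2 CPM in het and 87.1 CPM in WT ventricles. Nr2f1a, a nuclear receptor gene, rose to 8.91 CPM in het 3 dpa ventricles, against 4.26 CPM at het sham, and to 13.3 CPM in WT 3 dpa against 2.27 CPM in WT sham ventricles. Rbp4, whose protein carries retinol to Stra6, was by far the most abundant and fell to 1185 CPM in het 3 dpa ventricles, against 8107 CPM at het sham, and to 676 CPM in WT 3 dpa against 11988 CPM in WT sham ventricles, ratios of −2.77 (−2.80 to −2.74) and −4.15 (−4.18 to −4.12). Bco2a, a carotenoid-cleaving enzyme gene, and rbp7b, a retinol-binding protein gene, also fell at 3 dpa in both genotypes, bco2a to 7.58 CPM in het and 7.12 CPM in WT, against 47.6 CPM in het sham and 52.2 CPM in WT sham ventricles. At 7 dpa over sham 2 of 28 rose and 4 fell in het, and 2 of 29 rose and 4 fell in WT ventricles, beside 16.6% and 24.3% of all genes, and the list's median was −0.26 and −0.40 against 0.18 and 0.32. As for aldh1a2, different clusters made up the class at sham and at 3 dpa, and their part in these values was not tested. The fall of rbp4 at 3 dpa was not particular to this class. It was also called lower over sham in cardiomyocyte-like and macrophage-like cells of both genotypes and in WT endothelial-like cells. Het erythrocyte-like cells had a called rbp4 ratio of −1.73 at 3 dpa over sham.

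Between genotypes, in the epicardium- or fibroblast-like class at sham, 3 of 25 listed genes, rbp2a, rbp7b and nr2f2, were higher in het and 0 lower, beside 7.59% of all genes called. At 3 dpa rbp7b was higher, and at 7 dpa 0 of 30 were called, beside 5.10% of all genes. At sham rbp2a and rbp7b were also called higher in het endothelial-like and macrophage-like cells. The same held for rbp2a in thrombocyte-like and rbp7b in cardiomyocyte-like cells, so neither was particular to a class. In endothelial-like cells 5 of 25 were higher and 3 lower in het at sham, led by rbp2a, a cellular retinol-binding protein gene, at 528 CPM in het against 113 CPM in WT sham cells, a ratio of 2.23, beside 8.59% of all genes called and with a list median of −0.01 against 0.02 over all genes. Rbp4 was lower there, at 268 CPM in het against 737 CPM in WT sham cells. At 3 dpa 1 of 17 was higher and 1 lower, beside 8.85% of all genes, and at 7 dpa 3 of 25, rdh14a, hoxb6a and hoxb5a, were higher in endothelial-like cells, beside 7.01%. In cardiomyocyte-like cells 3 of 23 were higher and 3 lower at sham, 0 of 24 higher and 1 lower at 3 dpa, and 2 of 24 higher and 0 lower at 7 dpa, beside 9.94%, 6.88% and 5.37% of all genes.

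Within genotypes, 1 of 21 listed genes rose and 6 fell at 3 dpa over sham in het endothelial-like cells, and 7 of 25 rose and 1 fell in WT ones, beside 17% and 20.4% of all genes called. In cardiomyocyte-like cells 3 of 22 rose and 5 fell in het and 6 of 24 rose and 4 fell in WT ventricles, beside 22.1% and 20.4% of all genes, rbp2a reaching 50.6 CPM in het 3 dpa cells, against 9.12 CPM at het sham. At 7 dpa over sham 0 of 25 rose and 2 fell in het and 0 of 25 rose and 3 fell in WT endothelial-like cells, beside 7.44% and 9.11% of all genes. In cardiomyocyte-like cells 1 of 22 rose and 3 fell in het and 0 of 24 rose and 5 fell in WT ventricles, beside 12.4% and 12.8%.

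The genes whose level followed each gene most closely over 37 class-by-library sums were named by Pearson's r of log2(CPM + 1) among 13817 genes, as a description in which the sums share libraries and classes. These sums covered named classes only, so they left out the unnamed cluster 16, which held 71.4% of the cyp26b1 UMIs. For aldh1a2 they were ntn1a (r = 0.91), fbln2 (0.89), rflnb, elavl4 and si:ch211-250c4.4 (0.87 each). This list changed with the likeness measure, as given below under the dependence on processing. Other measures were compared for aldh1a2 only. The 3 nearest to cyp26b1 were tcf15 and snai1a (0.95 each) and cyp1c1 (0.93), those nearest to dhrs3a were dcn and zgc:113531 (0.97 each) and mxra8a (0.96), and those nearest to dhrs3b were usp43b and arvcfb (0.88 each) and ablim1b (0.86). Rdh10a was nearest to s100a11 (0.93), htra1b (0.92) and gpt2l (0.91), crabp2a to angptl2a (0.94), zgc:114181 and tmem30c (0.92 each), and crabp2b to gcga, large2 and si:dkey-12l12.1 (0.95 each). None of these lists held another of the 10 genes.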

How the data were processed

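The authors deposited raw UMI counts per gene and barcode for 6 libraries, per the file headers, which name the software version 3.0.2. The submitters' processing notes name Cell Ranger 3.0.2, Seurat 3.1.4 and GRCz11. The kit was a 3' kit, version 3.1, and about 12000 sorted cells were loaded per library, per the labels' protocols. The cell calling and the annotation release were not given in the sources used here.

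Barcodes were kept from 200 genes and 500 UMIs upwards when mitochondrial transcripts made up no more than 30%, and those with the highest Scrublet scores, 0.8% per 1000 barcodes, were removed as likely doublets. Counts were scaled to 10000 per cell and clustered with scanpy 1.11.5 and leidenalg 0.10.2 (2000 variable genes without the 10 studied genes, 30 components, 15 neighbours, resolution 1). Of the 10 genes, aldh1a2, cyp26b1 and stra6 would have been among the variable genes. A cluster was named when its markers had a mean log2 fold of at least 0.75 and a lead of 0.5 over the next class. At least 3 markers had to be raised, and no other class could have more markers among the 10 leading genes. Clusters of low depth also needed a leading gene from their own list. Clusters 5 and 8 had 10 macrophage and 8 cardiomyocyte markers raised. They stayed unnamed because of cd9b, a listed thrombocyte marker, and cpa5, a listed neutrophil marker, respectively. Cluster 13 stayed unnamed for its low depth. The largest unnamed cluster, 1, had a median of 705 UMIs per cell.

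UMIs were summed per class or cluster and library, and ratios have exact conditional binomial 95% intervals (Poisson for levels, Clopper-Pearson for shares). Class comparisons needed 100 cells and cluster comparisons 50 cells in both libraries. The ratio step was tested on simulated counts. Alternatives covered scaling with edgeR 4.0.16, cell filters, doublets, clustering, naming, the count minimum, the fold, thinning and the likeness measure. With 1 library per group no count model was fitted. The genes, lists and rules were chosen with earlier results of these data known. Named beyond the 10 genes are, by rule, the 3 largest called changes of the pathway list in each of 3 classes and the nearest 5 genes of aldh1a2 and 3 of the others with at least 500 UMIs; for brevity the text gives part of the first set. One result of the pathway list is not reported here.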

Additional observations from a re-analysis of the deposited data

Results flagged for a closer look

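Dhrs3a in cluster 11 moved in opposite directions at 7 dpa over sham, with a log2 ratio of 1.13 in het and −1.36 in WT ventricles. The levels were 37.6 CPM in het 7 dpa ventricles, against 17.2 CPM at het sham, and 31.4 CPM in WT 7 dpa against 80.6 CPM in WT sham ventricles, so the genotypes lay apart at sham and close together at 7 dpa.

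Cyp26b1 in macrophage-like cells was higher in het at sham, with a log2 ratio of het over WT of 2.04, and lower in het at 7 dpa, at −3.45. Within genotypes its 7 dpa over sham ratio was −2.27 in het and 3.22 in WT ventricles. In cluster 12 the het over WT ratio was 3.71 at sham and −4.59 at 7 dpa. These values rested on few cells. In cluster 12 all 31 UMIs of the WT 7 dpa library came from 1 cell and 11 of the 14 of the het sham library came from 1 cell, and in cluster 10 51 of the 54 UMIs of the WT 7 dpa library came from 1 cell.

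Aldh1a2 in the cardiomyocyte-like cluster 7 had a 7 dpa over sham ratio of −3.02 in het and 1.75 in WT ventricles. Of the 45 het sham UMIs 43 came from 1 cell. In each of these cases the 2 ratios had opposite signs and were both called, and the difference between them was not tested.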

How the results depend on the processing

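No paired analysis was possible because each group was 1 library. Of 444 recomputed values for 45 called ratios, 395 lay within the first interval, 42 moved with their direction kept and 7 changed sign, values within single clusters not counted.

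The number of called gene-by-class values depended on the rules. For het over WT at sham (9 called) it was 5 without doublet removal and 3 at a fold of 3. For het over WT at 3 dpa (0 called) it was 1 with clusters made with the 10 genes, with centring per library, without a UMI minimum and at a fold of 1.5, and 5 with cells named one by one. For het over WT at 7 dpa (3 called) it was 5 without doublet removal, with centring, with cells named one by one, without a minimum and at a fold of 1.5. For het 3 dpa over sham (6 called) it was 11 with centring and at a fold of 1.5, 15 with cells named one by one and 10 without a minimum. For het 7 dpa over sham (10 called) it was 6 at a minimum of 50 UMIs and at a fold of 3, and for WT 3 dpa over sham (9 called) 4 without cluster 20.

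The aldh1a2 ratio in epicardium- or fibroblast-like cells kept its direction under every alternative of scaling, filtering and naming but 1. Within single clusters the sign differed in 5 cases, −0.21 for het 7 dpa over sham and 0.09 for het over WT at 3 dpa in cluster 11, −0.91 and 0.56 for het over WT at sham and 7 dpa in cluster 9, and 0.09 for het over WT at 7 dpa in cluster 19. With trimmed-mean and median-of-ratios scaling it was 0.60 and 0.59 for het 3 dpa over sham, 1.05 and 1.00 for WT 3 dpa over sham, 0.47 and 0.41 for WT 7 dpa over sham and −0.12 and −0.08 for het over WT at 3 dpa, and with median-of-ratios scaling −0.01 for het 7 dpa over sham. These class values move with the median of all genes, which was 0.56 in het and 0.75 in WT at 3 dpa over sham. With cells named one by one, which kept 213 het sham and 96 WT sham cells, the ratio was 0.71 and −0.39 for het over WT at sham and 3 dpa, 3.1 and 2.06 for het 3 dpa and 7 dpa over sham and 4.20 and 2.84 for WT 3 dpa and 7 dpa over sham. Without cluster 20 it was −0.45 for het over WT at 3 dpa and 1.91 for WT 3 dpa over sham.

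Shares of cells with an aldh1a2 UMI scaled with depth. Thinned to 500 UMIs they were 8.58%, 14.8% and 10.9% in het and 6.73%, 23.1% and 10.9% in WT epicardium- or fibroblast-like cells at sham, 3 dpa and 7 dpa, and without thinning 32.3%, 52.4% and 40.5% in het and 29.7%, 64.6% and 43.8% in WT. Of the 5 genes nearest to aldh1a2, 0 were shared with Spearman's rho, 3 with a pseudocount of 10 and 1 over clusters.

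Some class ratios changed sign under an alternative or within a single cluster. For cyp26b1 in mural-like cells, het over WT at sham was 0.25 with cells named one by one. Within cluster 22 it was 3.04 (0.39 to 8.42), from 19 het UMIs and 1 WT UMI. Het 7 dpa over sham was −1.89 (−7.27 to 0.76) within cluster 22, from 1 and 19 UMIs, and was not called. WT 7 dpa over sham was −0.81 within cluster 21. For dhrs3a, het 3 dpa over sham was 1.57 within cluster 11, WT 7 dpa over sham 0.08 within cluster 9, and in mural-like cells 7 dpa over sham was −0.63 in het and −0.62 in WT within cluster 21. For cyp26b1 in epicardium- or fibroblast-like cells, WT 3 dpa over sham was −0.30 within cluster 9 and −0.57 without cluster 20, where crabp2a at 3 dpa over sham was −0.43 in het and −0.93 in WT. Both crabp2a values rested on fewer than 20 UMIs over both libraries. In macrophage-like cells, aldh1a2 het over WT at sham was 0.13 within cluster 10, and rdh10a was −1.62 for het over WT at sham and 2.54 for het 7 dpa over sham with centring. Aldh1a2 in cardiomyocyte-like cells, het over WT at sham, was −0.20 without the top cells. The cause was not tested for any of these. Leaving out the top cell, cluster 20 and the profiles over clusters were chosen after seeing the data.

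Genes with under 20 UMIs over both libraries were not compared, the rarest being stra6 with 59 UMIs and cyp26a1 with 153 UMIs in all, and clusters 19 and 20 had too few sham cells for a comparison.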

Other observations

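Smaller groups of cells carried several of the 10 genes. The glial-like cluster 27, 159 cells led by defbl1, apoda.1 and mbpa, had 34.6 CPM of dhrs3a, 33.8 CPM of dhrs3b and 25.1 CPM of cyp26b1 over all libraries. Its crabp2a level of 15.6 CPM came almost wholly from the WT 3 dpa library, with 17 UMIs in 2 cells. The unnamed cluster 26, 201 cells with the retinol-binding protein genes rbp7b and rbp2a among its 10 leading genes, had 40.9 CPM of cyp26b1 and 2.69 CPM of aldh1a2. Cells of the low-UMI cluster 1 had 44.2 CPM of aldh1a2 in het sham against 9.35 CPM in WT sham ventricles, from 43 and 11 UMIs.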
